A study of Homo sapiens with 12 samples.

Results

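The 49 genes described here encode the machinery that copies nuclear DNA and the enzymes that supply its deoxynucleotides. They were taken by name as the known parts of this machinery, by a rule that uses no measured value although earlier results of these data were known, and all 49 were found among the 58735 genes of the table. RNA was sequenced from cells labelled KGN and COV434. The study describes KGN as a line from a granulosa cell tumor (GCT) of the adult type and COV434 as a line from a juvenile-type GCT. Each line was measured untreated and after 72 h with 77-39, a selective inhibitor of the mitochondrial deacetylase SIRT3, in 3 libraries per group, 12 in all. Each line is a single line with no gene altered, and the labels of every library name the genotype as WT. The dose stands in the labels as 10 um/ml, a unit that can be read as molar or as mass per volume, and the untreated libraries carry the same treatment text, so they were taken as untreated from their titles.

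DNA replication starts at origins that are marked by the origin recognition complex (ORC1 to ORC6). CDC6 and CDT1 then load the ring-shaped MCM2-7 helicase, and geminin (GMNN) holds CDT1 in check. In S phase, CDC45, the GINS complex and MCM10 turn the loaded ring into an active helicase. DNA polymerase alpha with its primase starts each strand, polymerases delta and epsilon extend it, replication factor C (RFC) loads the sliding clamp PCNA, and FEN1 and LIG1 join the pieces of the lagging strand. Ribonucleotide reductase (RRM1 and RRM2), thymidylate synthase (TYMS) and thymidine kinase (TK1) provide the building blocks. Many of these genes are switched on before S phase by the E2F transcription factors, so their mRNA is abundant in dividing cells and low in resting ones.

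Values are FPKM, which are counts divided by gene length and library size. The length is that of all annotated exon bases of a gene, so an order of different genes by FPKM also depends on the annotation. Multiplication by gene length gave back whole reads, and the libraries held 15547851 to 18280415 reads on genes. The reads behind a value ranged, for 48 of the genes, from 87 for POLA2 to 3575 for MCM7 in KGN and from 149 for POLE2 to 14188 for RRM1 in COV434. RNASEH2A, a subunit of ribonuclease H2, had 6 to 35 reads per library and was not tested, because its mean was below 1 FPKM. It shares 30.8% of its exon bases with THSD8 on the same strand. MCM2, GINS4, POLA2, RRM2 and TIPIN share 20.2% to 35.1% of theirs with another annotated gene whose mean level was at most 0.151 FPKM, so their values could be split between genes by the counting. Nothing in the labels says that replicates came from separate cultures, so the p-values measure the spread between these libraries, which may be technical.

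Libraries are named here by their labels, so every statement on KGN or COV434 holds for the libraries so labelled. The study reports more genes changed by the inhibitor in COV434 than in KGN. In the libraries as labelled the order was the reverse. At an unadjusted p-value under 0.05 (limma), 3007 genes were higher and 2736 lower in KGN, against 424 and 541 in COV434. Whether the labels of the lines were exchanged was not tested. Defining markers were checked against the labels. FOXL2, the factor whose mutation defines adult-type GCT, was between 0 and 0.0195 FPKM in the 6 libraries labelled KGN and between 11.5 and 14 FPKM in the 6 labelled COV434. Of 10 granulosa markers, 2 reached a mean of 1 FPKM in KGN and 4 in COV434, with summed levels of 7.68 to 8.75 and 22.6 to 27.8 FPKM. SMARCA4 and SMARCA2 were chosen as markers because both are lost in a tumor type to which COV434 has been reassigned. They summed to 2.25 to 2.61 FPKM in KGN and to 11.5 to 19.1 FPKM in COV434. Both were higher in untreated COV434 than in untreated KGN, with log2 differences of 1.47 and 2.72 that passed the adjusted threshold. The keratins KRT7 and KRT19 were at 0 in KGN and the summed epithelial markers were 436 to 579 FPKM in COV434. None of 6 retinal and none of 4 leukocyte markers reached 1 FPKM, although the extraction text of the labels speaks of retinas. The 3 endothelial markers summed to at most 0.0141 FPKM in KGN, and in COV434 to 1.65 to 2.42 FPKM without and 0.381 to 0.699 FPKM with 77-39. Nearly all of this was CDH5, with a log2 difference of -0.98 (unadjusted p = 0.000486, adjusted p = 0.109, limma), and its part in the COV434 differences was not tested. SIRT3 itself was 4.29 ± 0.0675 FPKM (SD, n = 3) without and 4.04 ± 0.468 FPKM (SD, n = 3) with 77-39 in KGN, and its difference did not pass the test (adjusted p = 0.475, limma).

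A sequence feature that the choice of genes had not used was more frequent in their promoters than in those of other genes, though not present in most. RefSeq entries of GRCh38.p14, from 250 bases before to 50 after the gene start, were found for 43 of the 49 genes. MCM4, MCM5, GINS4, POLD3, RPA2 and RPA3 had none. The octamers TTTCCCGC, TTTCGCGC, TTTGCCGC and TTTGGCGC, which are of the type bound by E2F factors, were searched on both strands. They occurred in 21 of the 43, or 48.8%, against 3.99% of 27305 genes with an entry and 7.18% of 8546 of those tested in KGN. Within 50 bases of the start, 13 of the 43 held a match, against 1.31% of the 27305 genes and 2.34% of the 8546. Others lay farther off, and MCM7 and MCM3 each held a second one, beginning 187 and 174 bases before the start. The sites below were picked from those within 59 bases of the start, and the capitals mark the octamer as read along the gene.
MCM2: gtgaaccactTTTCGCGCgaaacctggt
MCM3: gttcggaagtTTTCGCGCcggggtggag
MCM7: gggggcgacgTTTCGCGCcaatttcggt
CDC6: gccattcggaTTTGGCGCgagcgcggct
GINS1: gctttgttcgGCGCCAAAgcgcggagcg
POLE2: tgcggcggtgGCGCCAAAtcgcaaatat
CLSPN: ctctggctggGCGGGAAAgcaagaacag
PCNA: agcgtcagggGCGGGAAAaggcgtgcgt
TYMS: cgggacggccGCGGGAAAaggcgcgcgg

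The strands named here are those of the genes, along which the sites are printed. For GINS1, POLE2, CLSPN, PCNA and TYMS the octamer reads as listed on the strand opposite to the gene. The MCM2 site is on the plus strand at chr3:127598403-127598430, where the octamer begins 3 bases into the transcript and overlaps a second match on the other strand. The CDC6 site is on the plus strand at chr17:40287876-40287903, the GINS1 site at chr20:25407668-25407695 and the TYMS site at chr18:657604-657631, also on the plus strand. On the minus strand are the sites of MCM3 at chr6:52284729-52284756, MCM7 at chr7:100101389-100101416, POLE2 at chr14:49688202-49688229, CLSPN at chr1:35769966-35769993 and PCNA at chr20:5126664-5126691. The octamers of MCM3, POLE2 and CLSPN cross the start itself, and that of PCNA lies 59 to 52 bases before it. MCM6 held 4 matches, in overlapping pairs, the nearer of which ended 79 bases before its start.

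Following treatment with 77-39, the replication genes were downregulated as a group in KGN. Of the 48 tested, 41 fell, 1 rose and 6 did not pass the threshold on the adjusted p-value (0.05, two-sided, limma on log2(FPKM + 1)). Among all 12671 genes tested in KGN, 16.4% fell and 17.6% rose. At an unadjusted p-value under 0.05, 43 of the 48 were lower and 1 higher, against 21.6% and 23.7% of all genes. The median log2 difference was -0.59 over the 48 genes and 0.01 over all genes. Every treated library lay below every untreated library for 44 of the 48, against 23.4% of all genes. The summed level of the 49 genes went from 758 ± 17.3 to 481 ± 14.8 FPKM (SD, n = 3). In a bulk sample, a smaller share of cells in S phase and less mRNA per cell cannot be told apart.

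In COV434 the same genes had small differences and a wide spread. No replication gene passed the adjusted threshold, where 0.0332% of the 12060 genes tested fell and 0.00829% rose. At an unadjusted p-value under 0.05, 5 were lower and 0 higher, against 4.49% and 3.52% of all genes. With voom on the reads, 0 passed the adjusted threshold, where 13 of the 12060 genes fell and 12 rose. At the unadjusted threshold 4 were lower, against 510 of all genes. The treated libraries lay below all untreated ones for 9 genes, against 8.16% of all genes. The median log2 difference was -0.17, against -0.02 over all genes, and the summed level was 1880 ± 90.6 FPKM without and 1650 ± 38.6 FPKM with 77-39 (SD, n = 3). The median SD of a replication gene between untreated libraries was 0.19 on the log2 scale in COV434 and 0.06 in KGN.

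**Figure D1:**
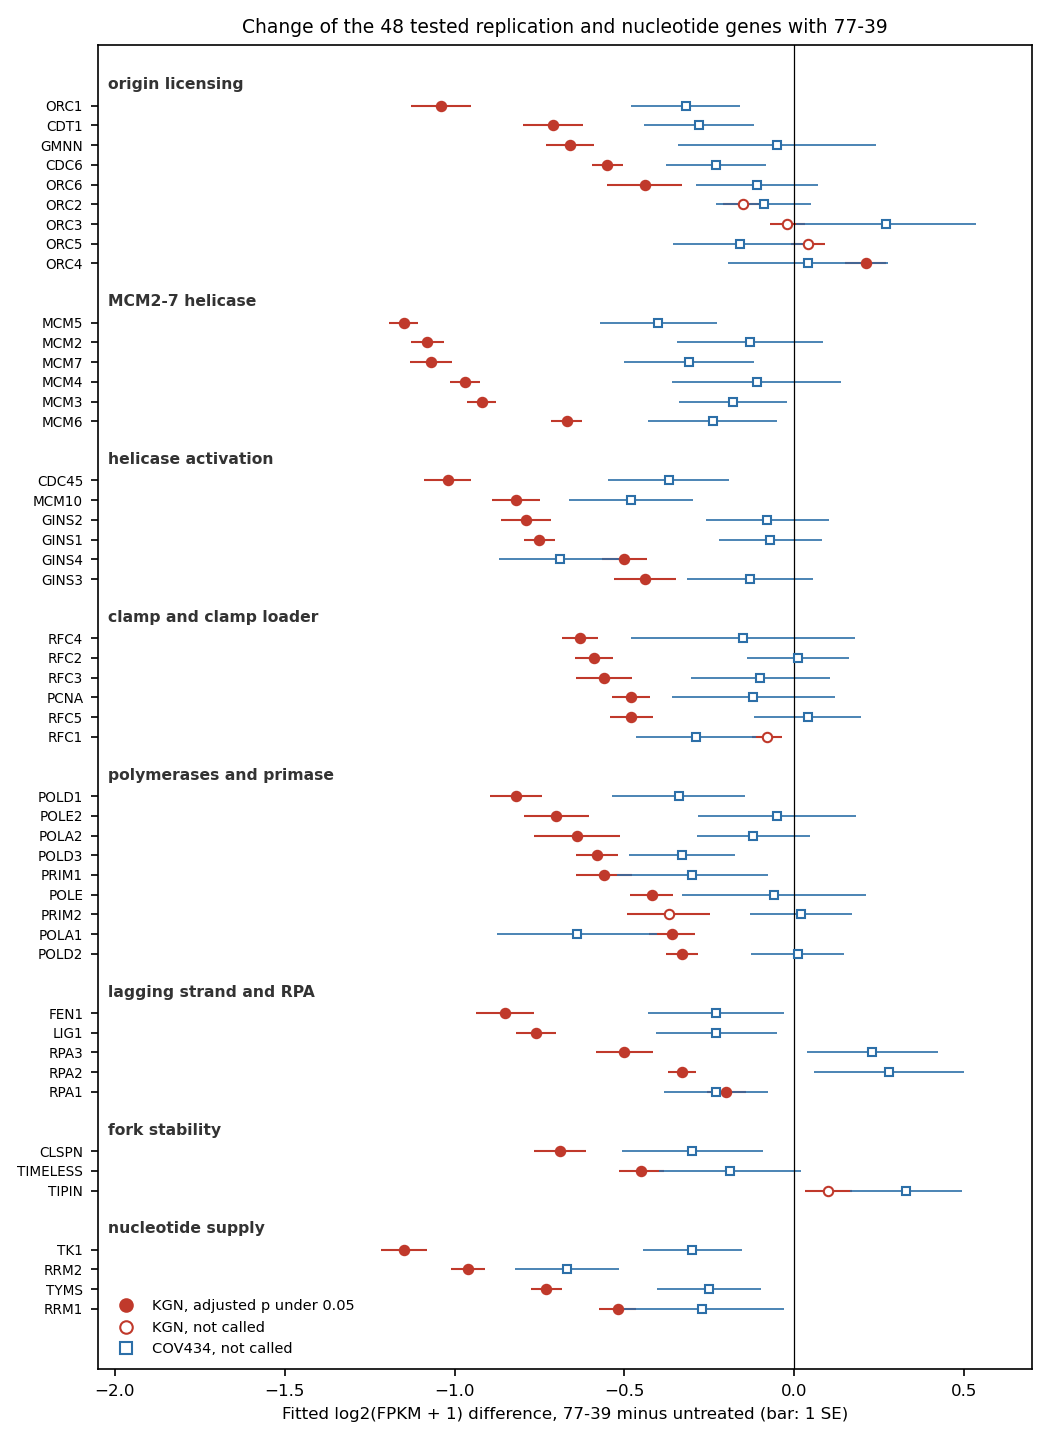
Fitted log2(FPKM + 1) difference of 77-39 treated minus untreated libraries for each of the 48 tested genes, grouped by role, with 1 SE (n = 3 against 3). Red circles are KGN, filled where the adjusted p-value was under 0.05, and blue squares are COV434, where none passed. The KGN points of MCM2 to MCM7 lie between -1.15 and -0.67, and ORC2 to ORC5, RFC1 and TIPIN lie near 0.

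The MCM2-7 helicase, the motor that unwinds the DNA, had the lowest median of the 8 roles in KGN. All 6 subunits fell, with a median log2 difference of -1.02. MCM5 was 11, 11.5 and 11.6 FPKM in the untreated and 4.49, 4.63 and 4.57 FPKM in the treated libraries. MCM2 was 17.9, 19.3 and 19.4 FPKM without and 8.21, 8.45 and 8.52 FPKM with 77-39. For both genes the treated libraries held less than the lowest untreated one by a wide margin, with log2 differences of -1.15 ± 0.0429 and -1.08 ± 0.0478 (SE, adjusted p = 7.2e-05 and 9.13e-05, limma).

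MCM7, another subunit of the ring, was 37.3, 42 and 41.4 FPKM without and 18.2, 17.9 and 19.6 FPKM with 77-39. MCM4 was 21.5, 23.3 and 22.2 FPKM without and 10.9, 11 and 10.9 FPKM with 77-39. MCM3, the most abundant subunit in KGN, was 45.3, 47.6 and 46.3 FPKM without and 23.8, 24.7 and 23.8 FPKM with 77-39. These 3 subunits went to 0.462, 0.489 and 0.519 times their untreated means. MCM6 was 28.9, 29 and 30.2 FPKM without and 17.3, 18.4 and 18.5 FPKM with 77-39, and it kept more of its level than the other subunits, at 0.614 times the untreated mean.

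The ring holds its subunits in equal numbers, but the FPKM of their mRNAs were unequal and became more so. FPKM divides reads by all annotated exon bases, 7338 for MCM5 and 3650 for MCM3. The part of these lengths in the inequality was not tested, but the same lengths hold in every library. The most abundant subunit was 4.08 ± 0.0765 times the least abundant in untreated and 5.27 ± 0.0679 times in treated KGN libraries (SD, n = 3), and the groups did not overlap. The sum of the 6 went from 169 ± 5.82 to 84.6 ± 1.56 FPKM in KGN.

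In COV434 the MCM genes stood at higher levels and did not pass the adjusted threshold. MCM2 was 89.8, 53.2 and 61.6 FPKM without and 67, 54.9 and 61.4 FPKM with 77-39. MCM3 was 132, 127 and 134 FPKM without and 105, 110 and 134 FPKM with 77-39. MCM5 was 50.7, 35.4 and 41.3 FPKM without and 31.7, 29.2 and 34.3 FPKM with 77-39. Of the 6, only MCM5 had no overlap between the groups, with a log2 difference of -0.40 ± 0.173 (SE, adjusted p = 0.625, limma).

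MCM7 ranged from 130 to 183 FPKM without and from 110 to 146 FPKM with 77-39 in COV434. MCM4 ranged from 45.8 to 78.2 and from 41.4 to 67.5 FPKM, and MCM6 from 30.8 to 45.3 and from 26.8 to 35.1 FPKM. The spread was shared between genes, since the untreated library 1 was the highest of its group for MCM2, MCM4, MCM5 and MCM7 and the lowest for MCM6.

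**Figure D2:**
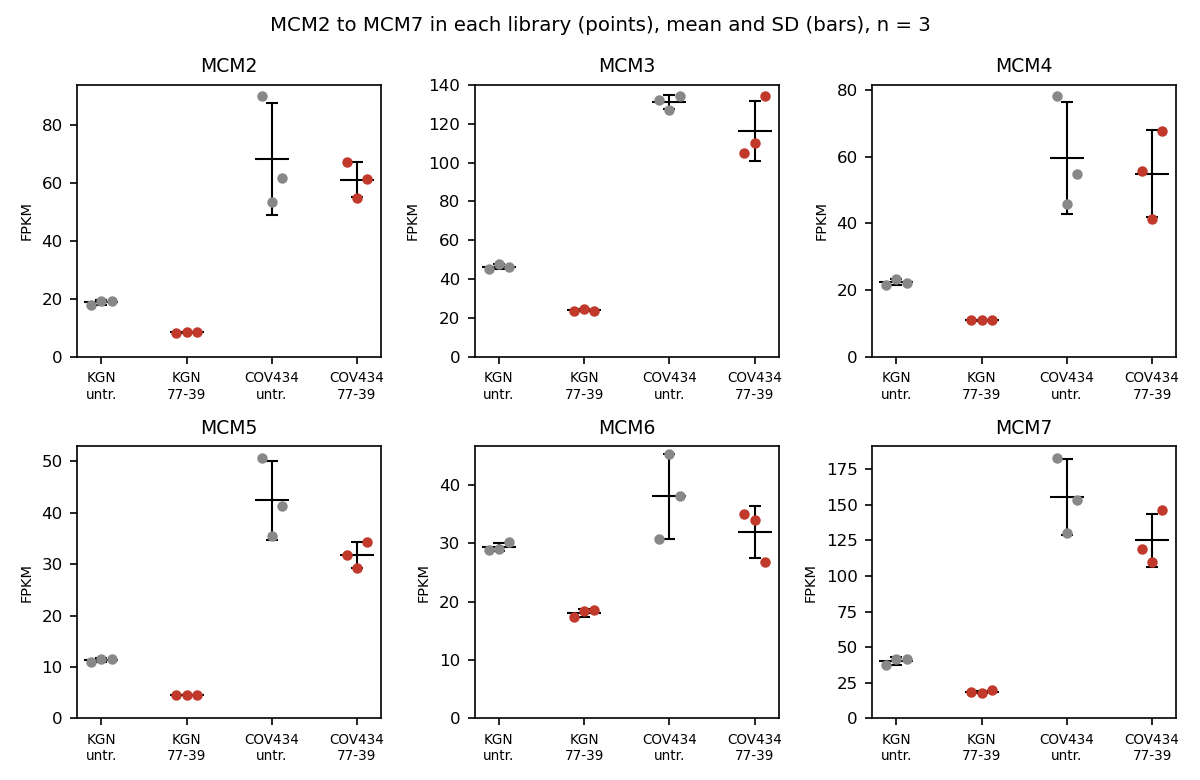
FPKM of MCM2 to MCM7 in each library (points, grey untreated and red 77-39), with the mean and SD of 3 libraries per group. In KGN every treated point lies below every untreated point for all 6 genes, and in COV434 the groups overlap for all but MCM5.

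Of the 9 origin licensing genes, 5 fell, 1 rose and 3 did not pass the test in KGN. ORC1, the subunit of the origin recognition complex whose amount varies over the cell cycle, was 4.7, 5.9 and 5.34 FPKM without and 2.15, 2.23 and 1.84 FPKM with 77-39 in KGN. This was the lowest ratio of all 49 genes, at 0.39 times the untreated mean (log2 difference -1.04 ± 0.0885, SE, adjusted p = 0.000507, limma). The loading factor CDC6 was 8.98, 8.93 and 8.41 FPKM without and 5.53, 5.8 and 5.66 FPKM with 77-39, with no overlap. CDT1, GMNN and ORC6 fell as well, with log2 differences of -0.71, -0.66 and -0.44. The call of ORC6 was lost without a filter (adjusted p = 0.0826), in 1 fit of all 12 libraries (0.0991), with same-numbered libraries paired as a block (0.0613) and without the treated KGN library 1 (0.0716). Same-numbered KGN libraries showed no pairing, however. The ratio of CDT1 to its inhibitor GMNN was 1.42 ± 0.101 without and 1.41 ± 0.219 with 77-39 (SD, n = 3), and its values overlapped.

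The core subunits ORC2 to ORC5 had log2 differences from -0.15 to 0.21. ORC2 was 7.06, 7.57 and 7.65 FPKM without and 6.81, 6.85 and 6.08 FPKM with 77-39, with no overlap (unadjusted p = 0.0352, adjusted p = 0.0852, limma). ORC3 was 10.6, 9.66 and 10 FPKM without and 9.93, 10.3 and 9.55 FPKM with 77-39, which overlapped. ORC4 was 3.67, 3.91 and 3.97 FPKM without and 4.27, 4.91 and 4.63 FPKM with 77-39, so that each treated library was above each untreated one. ORC4 was the only replication gene that rose (log2 difference 0.21 ± 0.0613, SE, adjusted p = 0.0388, limma), and the call was lost without any 1 of 5 of the 6 KGN libraries, under 4 other settings of the fit and after correction for GC content (adjusted p = 0.605). ORC1 relative to the mean of ORC2 to ORC5 was 0.728 ± 0.0861 in untreated and 0.284 ± 0.0243 in treated KGN libraries (SD, n = 3), and these groups did not overlap. In COV434, ORC1 was 17.9, 17 and 20.4 FPKM without and 17.2, 13.5 and 13.1 FPKM with 77-39, and the same ratio overlapped between its groups.

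The genes that activate the helicase all fell in KGN, with log2 differences from -1.02 for CDC45 to -0.44 for GINS3. GINS1 was 10.9, 10.2 and 10.9 FPKM without and 5.92, 5.87 and 6.04 FPKM with 77-39. GINS3, the least abundant, was 2.05, 1.88 and 1.73 FPKM without and 0.982, 1.16 and 1.25 FPKM with 77-39. Neither gene overlapped between the groups. MCM10, which helps the activated helicase to open the origin, was 7.22, 6.39 and 7.24 FPKM without and 3.29, 3.84 and 3.4 FPKM with 77-39, and it fell. In COV434, MCM10 was 5.02, 6.68 and 5.88 FPKM without and 3.98, 4.84 and 3.01 FPKM with 77-39, with no overlap (unadjusted p = 0.0285, adjusted p = 0.514, limma).

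GINS4 had the lowest ratio of the 49 genes in COV434, at 0.557 times the untreated mean. It was 7.89, 5.22 and 6.99 FPKM without and 3.15, 3.85 and 4.21 FPKM with 77-39, with no overlap (log2 difference -0.69 ± 0.179, SE, unadjusted p = 0.00455, adjusted p = 0.263, limma). In KGN it was 5.06, 4.92 and 4.48 FPKM without and 3.2, 2.86 and 3.29 FPKM with 77-39. The GINS4 difference in KGN, -0.50 ± 0.0664 (SE), and that in COV434 were not shown to differ (adjusted p = 0.656).

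The sliding clamp PCNA was the most abundant of the 49 genes in every group. It fell less than the helicase in KGN, from 98.3 ± 2.51 to 70.3 ± 4.22 FPKM (SD, n = 3), so that PCNA relative to the mean MCM subunit went from 3.5 ± 0.0897 to 4.99 ± 0.217. Of the clamp loader, RFC2 to RFC5 fell and the large subunit RFC1 did not pass the test. RFC4 was 14.5, 14.1 and 14.1 FPKM without and 8.24, 9.07 and 9.24 FPKM with 77-39 in KGN. RFC2 was 14.9, 15.4 and 15.1 FPKM without and 9.15, 9.47 and 10.5 FPKM with 77-39. RFC1 was 11.8, 12.3 and 12.7 FPKM without and 11.8, 11.6 and 11.3 FPKM with 77-39, a log2 difference of -0.08 ± 0.0452 (SE, adjusted p = 0.201, limma).

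RFC1 therefore stood at 0.92 ± 0.0351 times the mean of the small subunits in untreated and at 1.33 ± 0.102 times in treated KGN libraries (SD, n = 3). In COV434 this ratio was 0.293 ± 0.0106 and 0.247 ± 0.0569, where the groups overlapped. RFC2 was 56.3, 55.3 and 54.2 FPKM without and 54.3, 50.4 and 63.1 FPKM with 77-39 in COV434. RFC1 was 7.98, 10.2 and 9.82 FPKM without and 8.41, 8.26 and 5.86 FPKM with 77-39 there, with overlap.

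Of the 9 genes of the replicative polymerases, 8 fell in KGN, and PRIM2, the large primase subunit, lay close to the threshold. POLD1, the catalytic subunit of polymerase delta, was 12.5, 15 and 14.1 FPKM without and 7.12, 7.11 and 7.98 FPKM with 77-39. PRIM2 was 3.87, 2.76 and 3.08 FPKM without and 2.01, 2.69 and 2.1 FPKM with 77-39 (log2 difference -0.37 ± 0.121, SE, adjusted p = 0.0521, limma). Its treated libraries were all below the untreated ones, the nearest by a small margin. PRIM2 passed with a pseudocount of 0.1 (adjusted p = 0.0495), with voom (0.0123), after the GC correction (0.00199), without the untreated KGN library 2 (0.0478) and without the treated KGN library 2 (0.0446). The accessory subunits did not follow their catalytic partners in size, with log2 differences of -0.82 for POLD1 and -0.33 for POLD2, and of -0.42 for POLE and -0.70 for POLE2.

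POLA1, the catalytic subunit of polymerase alpha, had the smallest p of the polymerases in COV434. It was 18.5, 21.5 and 18.7 FPKM without and 16.8, 13 and 8.23 FPKM with 77-39 in COV434, with no overlap but a wide treated range (log2 difference -0.64 ± 0.235, SE, unadjusted p = 0.0262, limma). In KGN it was 6.9, 7.68 and 8.09 FPKM without and 5.62, 6 and 5.37 FPKM with 77-39, and it fell.

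On the lagging strand, all tested genes fell in KGN, with log2 differences of -0.85 for the flap nuclease FEN1, -0.76 for LIG1 and -0.50 to -0.20 for the single-strand binding protein RPA. LIG1, the ligase that seals the pieces, was 8.4, 9.19 and 8.78 FPKM without and 4.43, 4.88 and 5.06 FPKM with 77-39. RPA1, the large RPA subunit, was 29.2, 33 and 31.7 FPKM without and 26, 27.7 and 27.9 FPKM with 77-39, a log2 difference of -0.20 ± 0.0579 (SE, adjusted p = 0.0376, limma). The RPA1 groups did not overlap, but its call was lost in 5 of the 6 fits without 1 KGN library. In COV434 the 3 RPA genes differed in sign, with log2 differences of -0.23, 0.28 and 0.23 that did not pass the test, and RPA1 was 49.1, 57.4 and 58.2 FPKM without and 50.8, 46.8 and 42.7 FPKM with 77-39.

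Of the genes that keep the fork stable, the checkpoint mediator CLSPN was 6.64, 5.27 and 5.85 FPKM without and 3.34, 3.24 and 3.23 FPKM with 77-39 in KGN, and it fell. TIPIN, the partner of TIMELESS, was 4.89, 4.44 and 4.41 FPKM without and 4.56, 5.4 and 5.02 FPKM with 77-39, which overlapped. In COV434, TIPIN was 5.89, 8.63 and 7.29 FPKM without and 8.56, 10.1 and 9.17 FPKM with 77-39. TIMELESS fell in KGN, and its level relative to TIPIN went from 3.31 ± 0.279 to 2.18 ± 0.244 (SD, n = 3) with no overlap.

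The 4 nucleotide supply genes all fell in KGN, with a median log2 difference of -0.84. TK1, which salvages thymidine, was 29.7, 35.4 and 34 FPKM without and 14, 14.4 and 14.6 FPKM with 77-39 (log2 difference -1.15 ± 0.0677, SE, adjusted p = 0.000176, limma). RRM2, the subunit that limits ribonucleotide reductase in S phase, was 12.6, 12.3 and 12.3 FPKM without and 6.31, 5.76 and 5.69 FPKM with 77-39. TK1 and RRM2 went to 0.434 and 0.477 times their untreated means.

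TYMS, which makes thymidylate from deoxyuridylate, was 23.2, 25 and 24.5 FPKM without and 14.6, 14.2 and 13.9 FPKM with 77-39 in KGN. RRM1, the large reductase subunit, was 31.8, 35.1 and 35.2 FPKM without and 22.7, 24.1 and 23.6 FPKM with 77-39. RRM1 fell less than RRM2, so that their ratio went from 2.74 ± 0.187 to 3.98 ± 0.331 (SD, n = 3), with no overlap. TYMS shares 39.1% of its exon bases with ENOSF1 on the opposite strand, and how the counting treated strand is not given in the sources used here. ENOSF1 had a log2 difference of -0.10 in KGN that did not pass the test (adjusted p = 0.181, limma).

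In COV434, RRM2 had the smallest p of the 48 genes. It was 25.4, 30.9 and 32.8 FPKM without and 18.8, 16.9 and 18.7 FPKM with 77-39, with no overlap (log2 difference -0.67 ± 0.153, SE, unadjusted p = 0.00212, adjusted p = 0.201, limma). TK1 was 97.7, 110 and 105 FPKM without and 84.1, 80.9 and 88 FPKM with 77-39, and TYMS was 26.9, 28.4 and 27.6 FPKM without and 19.6, 25.3 and 25 FPKM with 77-39. The groups of TK1 and TYMS did not overlap either, but neither gene passed the test. RRM1 was 133, 200 and 184 FPKM without and 169, 156 and 106 FPKM with 77-39, which overlapped.

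**Figure D3:**
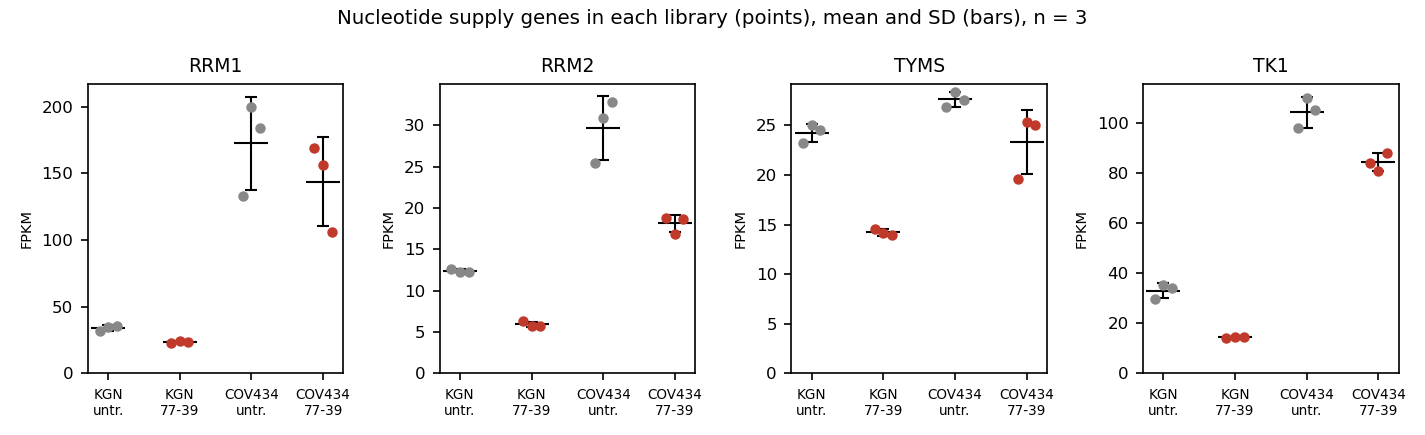
FPKM of RRM1, RRM2, TYMS and TK1 in each library (points, grey untreated and red 77-39), with the mean and SD of 3 libraries per group. The treated KGN points lie below the untreated ones for all 4 genes, and in COV434 the groups are apart for RRM2, TYMS and TK1 and overlap for RRM1.

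Whether the response differed between the lines was tested directly. The KGN difference was lower than the COV434 difference for 7 of the 48 genes and higher for 0 at an adjusted p-value under 0.05, where 1.74% and 1.85% of 13127 genes were. These were TK1 (-0.85 ± 0.127, SE, adjusted p = 0.00641), MCM3 (-0.74 ± 0.138), GINS1 (-0.67 ± 0.136), MCM5 (-0.75 ± 0.165), RFC2 (-0.60 ± 0.132), MCM2 (-0.95 ± 0.225) and ORC1 (-0.71 ± 0.17), all by limma on the log2 scale. ORC1 lost its call with the replicate block (adjusted p = 0.0619). TK1 kept its call without any 1 of the 12 libraries. The number of genes called was 1 or 2 without any 1 of the 6 KGN libraries, 2 without the untreated COV434 library 3, 4 without the treated COV434 library 2 and 11 without the treated COV434 library 1. Of all 13060 to 13167 genes tested in these fits, 58 to 106, 111, 120 and 427 were lower. The treated COV434 library 1 had the highest share of reads on mitochondrially encoded genes, 13.51%, against 7.3% to 9.63% in the other 11.

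The COV434 libraries with the same number deviated together from their group means, with correlations across genes of 0.4, 0.474 and 0.166. The untreated library 3 correlated by 0.154 with the treated library 2, so number 3 is not clearly paired. Same-numbered deviations also shared the sign of Spearman's rho with gene length over all genes tested. It was 0.4 and 0.52 for number 1, -0.35 and -0.21 for 2, and -0.31 and -0.41 for 3 (untreated and treated). The part of gene length was not tested, and the numbers were taken as pairs. Of the 48 genes, 23 were lower in the treated library of all 3 pairs, against 18.9% of all genes. When that number entered the fit as a block, 10 genes were lower and 2 higher at an unadjusted p-value under 0.05, against 7.57% and 6.85% of all genes, and 0 passed the adjusted threshold. The 10 were RRM2, GINS4, POLA1, MCM5, CDC45, MCM10, TK1, POLD1, CDT1 and POLD3, and the 2 were TIPIN and RPA2. RRM2 came nearest to the threshold, with an adjusted p of 0.0861. The interaction called 11 genes as lower with the block, against 2.22% of all genes. That block also held the KGN numbers, which showed no pairing. CDC45, GINS2, LIG1, MCM7 and RPA2 were added by the block.

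Differences also moved with the GC content of the transcripts. In KGN, genes with a higher GC content had lower log2 differences, with Spearman's rho of -0.49 across the 48 genes and -0.39 across 10237 coding genes tested. These genes share libraries and are not independent. The 6 replication genes that did not pass in KGN and ORC4 had GC contents of 37.7% to 45.1%, in a range of 37.7% to 66% over the 49. In COV434 the deviation of the untreated library 1 from the other untreated libraries had a rho of 0.64 with GC content across the 48 genes, and that of library 2 had -0.68. The part of GC content in these differences was not tested, but the fits were repeated after a lowess curve on GC content had been taken off each library, an alternative chosen after seeing the data.

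After this correction, 45 of the 48 genes fell in KGN, against 20.8% of all genes, and 0 rose. ORC2, ORC3, RFC1 and PRIM2 joined those that fell, with log2 differences of -0.23, -0.16, -0.20 and -0.52, and ORC4, ORC5 and TIPIN did not pass. In COV434 the correction together with the block called 5 genes as lower, RRM2, GINS4, POLA1, MCM5 and CDC45, against 3.43% of all genes. The interaction then called 27 genes as lower, against 5.78% of all genes.

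**Figure D4:**
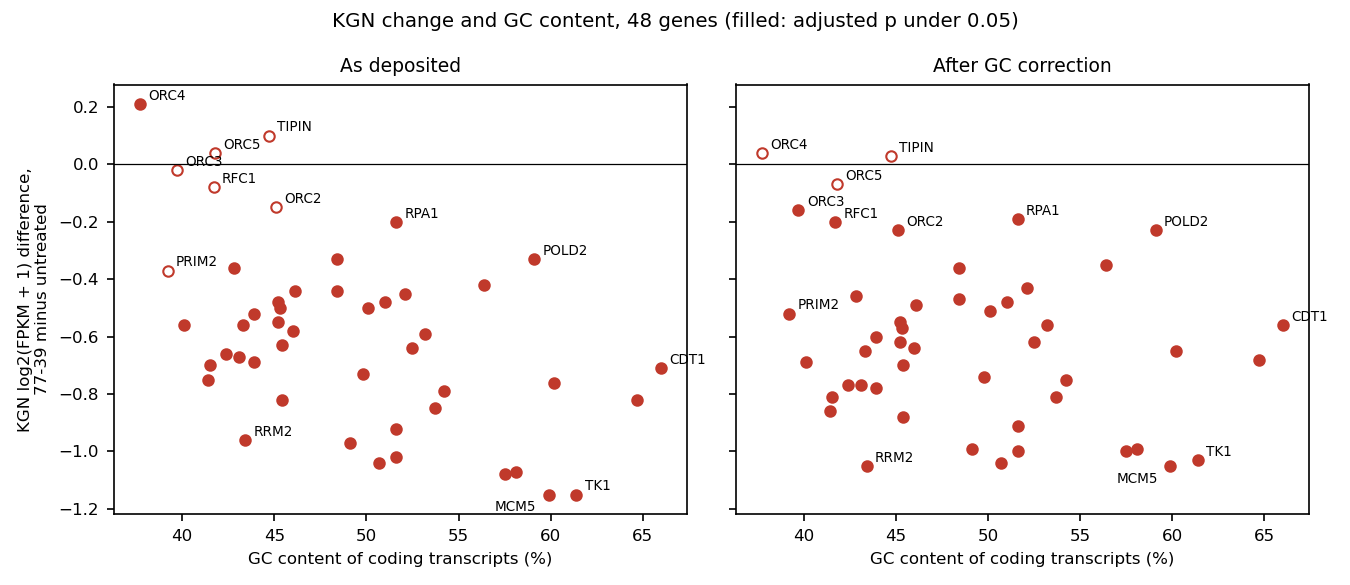
KGN log2(FPKM + 1) difference of the 48 genes against the median GC content of their coding transcripts, on the deposited scale (left) and after the GC correction (right). Filled points passed an adjusted p-value under 0.05. The open points on the left lie at GC contents of 39.2% to 45.1%, and on the right only ORC4, ORC5 and TIPIN are unfilled.

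Without 77-39, most replication genes were higher in COV434 than in KGN. Of the 48, 36 were higher and 3 lower at an adjusted p-value under 0.05, where 36.4% and 32.6% of 13098 genes were. The median ratio of the means was 2.21, from 0.692 for ORC2 to 5.06 for RRM1. RRM1 was 172 ± 35 FPKM in untreated COV434 and 34 ± 1.89 FPKM in untreated KGN (SD, n = 3). MCM7, MCM5, GMNN, RFC2 and MCM2 followed, with ratios of 3.86 to 3.61. ORC2, ORC6 and RFC1 were lower in COV434, with log2 differences of -0.46, -0.42 and -0.37. ORC6 lost its call without the untreated COV434 library 3 (adjusted p = 0.0647), and RFC1 without the untreated KGN library 2 (0.0632) or 3 (0.0734). Among the higher genes, GINS4, POLA2, RFC3 and RFC4 kept their call in 1 of the 6 fits without 1 library, POLD1 in 2 and POLD3 in 4.

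The untreated lines did not differ in every gene of a complex in the same way. MCM6 had a ratio of 1.29 and did not pass the test, but it passed in 1 fit of all 12 libraries (adjusted p = 0.0425), after the GC correction (0.00371) and without the untreated COV434 library 1 (0.00309). By comparison, the other 5 MCM genes were 2.67 to 3.86 times higher in COV434. Among nucleotide supply genes, TYMS was 27.6 ± 0.711 FPKM in COV434 and 24.2 ± 0.924 FPKM in KGN (SD, n = 3, adjusted p = 0.0798, limma). The authors' library total was 1.073 to 1.103 times the recovered reads in KGN and 0.911 to 0.978 times in COV434. With voom on the recovered reads the median of all genes was -0.18, against 0.02 on the deposited scale. Of the 48 genes, 31 were then higher and 7 lower, against 4028 and 5248 of all 13098 genes. Line and culture cannot be told apart in this comparison.

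The E2F-type octamer printed above for 9 genes was present in 19 of the 35 genes with an entry that fell in KGN and in ORC3 and TIPIN among the 8 others, of which RNASEH2A was not tested. The 21 tested genes with it had a median log2 difference of -0.67, from -1.08 to 0.10, and the 21 tested genes with an entry and without it had -0.52, from -1.15 to 0.21. TK1, RRM2, ORC1 and CDC45 held none of these letters in the window and fell. Promoters of a list of mitosis genes showed another pattern. The E2F-type octamers were in 9.09% of 33, the letters TTTGAA of the cell cycle homology region in 75.8%, and CCAAT in 81.8%, against 48.8%, 2.33% and 65.1% of the replication genes. TTTGAA was in 18.2% and CCAAT in 39.7% of all genes with an entry.

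**Figure D5:**
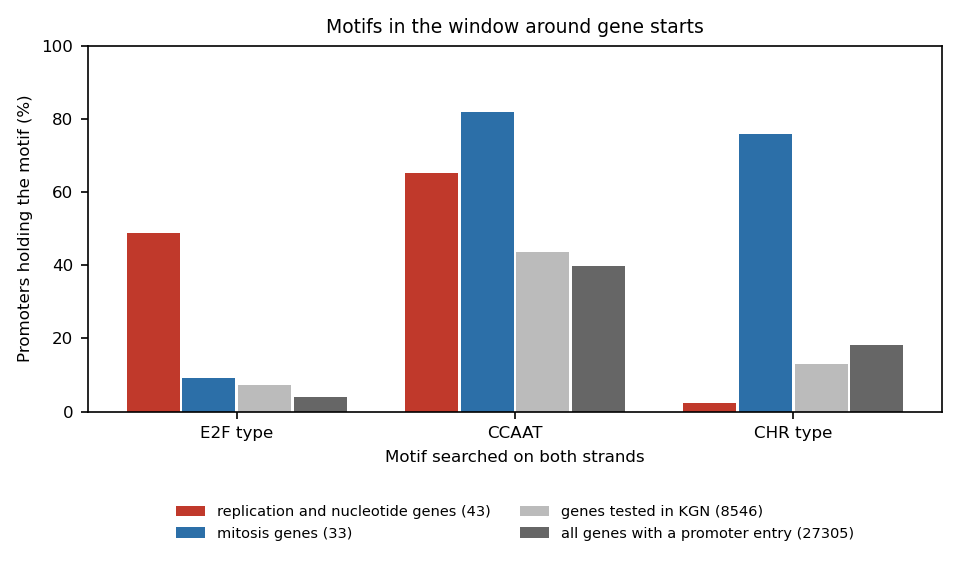
Share of promoters, from 250 bases before to 50 after the start, that hold an E2F-type octamer, CCAAT or the CHR-type letters TTTGAA on either strand, for the 43 replication and nucleotide genes, 33 mitosis genes, 8546 genes tested in KGN and all 27305 genes with an entry. The E2F-type bar of the replication genes reaches 48.8% and that of all genes 3.99%, and the CHR-type bar is highest for the mitosis genes, at 75.8%.

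Several replication genes start next to a gene that runs the other way, and their values in KGN stand beside those of the replication genes, with no test of the difference between partners. Of 16 such neighbors tested, 6 fell, 1 rose and 9 did not pass, where 16.4% of all genes fell and 17.6% rose. PRKDC starts 2 bases from MCM4 and had a log2 difference of -0.07 that did not pass, against -0.97 for MCM4. TPRA1, whose start overlaps that of MCM2, was 4.29, 5.89 and 5.34 FPKM without and 4.7, 5.15 and 5.55 FPKM with 77-39. UFD1, which starts 244 bases from CDC45, had 0.06 and did not pass. VPS35, which starts 125 bases from ORC6, rose by 0.30 while ORC6 fell. AFMID next to TK1, PRPF38A next to ORC1 and ZSWIM9 next to LIG1 fell by 0.29, 0.34 and 0.32. AP4M1 next to MCM7 fell by 0.23 and SMYD4 next to RPA1 by 0.26, where RPA1 fell by 0.20. MAP2K1 next to TIPIN fell by 0.30, whereas TIPIN did not pass the test. PXMP2 next to POLE had a log2 difference of -0.37 that did not pass (adjusted p = 0.194, limma), and POLE fell by 0.42.

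HMOX1, the heme oxygenase of the oxidative stress response, ends 5849 bases before the start of MCM5. On GENCODE 29 coordinates HMOX1 spans chr22:35380361-35394214 and MCM5 spans chr22:35400063-35425430. HMOX1 was 16.4, 16.7 and 15.2 FPKM without and 104, 101 and 107 FPKM with 77-39 in KGN, a log2 difference of 2.62 (adjusted p = 3.48e-06, limma), next to the 0.402-fold level of MCM5. In COV434 it was 4.67, 4.6 and 4.77 FPKM without and 6.42, 6.64 and 10.5 FPKM with 77-39.

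Other genes of the pathway, from lists that hold none of the 49, fell in KGN to different degrees. Of all genes tested there, 16.4% fell and 17.6% rose. Of the G1/S control genes, 13 of 20 tested fell and E2F6 rose, with a median log2 difference of -0.31. E2F1, E2F8, E2F7 and cyclin A2 (CCNA2) fell by 0.99, 0.95, 0.72 and 0.86. Of further replication factors, 21 of 28 fell and POLE4 rose, with a median of -0.41, and UHRF1, DTL, DBF4B and DNMT1 fell by 1.01, 0.91, 0.64 and 0.59. Of genes that assemble chromatin behind the fork, 7 of 12 fell and ASF1A rose, and the histone chaperone ASF1B fell by 1.17 while CHAF1A, CHAF1B and TONSL fell by 0.83, 0.73 and 0.56. In COV434, 0 genes of these lists passed the adjusted threshold in limma. At an unadjusted p-value under 0.05, 3 of 20, 1 of 27 and 1 of 12 were lower and 0 higher, against 4.49% and 3.52% of all genes.

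Of 35 other nucleotide synthesis genes tested in KGN, 12 fell, 4 rose and 19 did not pass, where 16.4% of all genes fell and 17.6% rose. Their median log2 difference was -0.11. SHMT1, which loads folate with the carbon unit used in nucleotide synthesis, fell by 0.68, whereas DCTD, ADSS and CMPK1 rose by 0.24, 0.21 and 0.38. RRM2B, the reductase subunit that serves cells outside S phase, was 16.9, 14.8 and 15.3 FPKM without and 24.6, 24.9 and 25.4 FPKM with 77-39, so it rose (log2 difference 0.64, adjusted p = 0.000556, limma) while RRM2 fell. Of the mitosis genes, 37 of 39 tested fell in KGN, with a median of -0.64, among them PLK1, CDCA8, CCNB2 and BUB1B, which fell by 1.05, 0.89, 0.79 and 0.79. In COV434, 0 genes of either list passed the adjusted threshold in limma. At an unadjusted p-value under 0.05, 3 of 36 nucleotide synthesis and 4 of 39 mitosis genes were lower, and 1 of each list was higher. Of all genes, 4.49% were lower and 3.52% higher.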

How the data were processed

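Total RNA of 12 libraries was sequenced on an Illumina NovaSeq instrument from TruSeq libraries, whose strand handling is not given. The authors deposited FPKM for 58735 genes, whose coordinates match GENCODE 29 on GRCh38. The submitters' processing notes list HISAT2 2.0.5 and the mouse builds mm10 and mm8, and the counting tool is not given in the sources used here. Groups were taken from the sample titles. The deposited FPKM times gene length fell on whole reads for 100% of genes above 0 (tolerance 0.05).

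Each line was fitted with limma 3.58.1 (lmFit, eBayes with a trend) in R 4.3.3 on log2(FPKM + 1), a scale that understates the change of low genes, keeping genes whose mean reached 1 FPKM, with Benjamini-Hochberg adjustment over all genes tested. The difference between the lines was the interaction over all 12 libraries. That fit and the repeat over all 12 libraries at once used 1 spread for both lines, although the spread was wider in COV434. GINS4 in COV434 had a log2 difference of -0.69 either way, with an SE of 0.179 in its own line and 0.133 in the shared fit. The fits were tested on simulated data. Same-numbered libraries correlated by 0.4, 0.474 and 0.166 in COV434 and by -0.0164, -0.018 and -0.019 in KGN (deviations from group means), so the numbers pair the libraries of COV434 from the data, not from the labels, and not those of KGN. No libraries agreed within counting error.

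Values in every library are given, per role, for the genes with the smallest and the largest p in KGN and the smallest p in COV434, for MCM2-7 and the nucleotide supply genes, and for genes called by the interaction or in the opposite direction. From each further list at most 4 genes with the smallest p were named, besides those that rose, and some genes the rule names are not reported here. The genes and lists were chosen with earlier results of these data known. The fits were repeated without any filter and with the filter lowered to 0.1 FPKM, with 0.1 as pseudocount, after median-ratio scaling, with voom on the recovered reads, over all 12 libraries at once, with the library number blocked, without each library in turn, with a promoter window of 50 bases either side, and, added after seeing the data, a GC correction by lowess, alone and with the block. Promoters are RefSeq windows matched by symbol, and Python 3.11.15 was used.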

Additional observations from a re-analysis of the deposited data

Results flagged for a closer look

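In 7 replication genes the difference with 77-39 was lower in KGN than in COV434 by the interaction test. The difference of the differences was -0.85 for TK1, -0.74 for MCM3, -0.67 for GINS1, -0.75 for MCM5, -0.6 for RFC2, -0.95 for MCM2 and -0.71 for ORC1, on the log2 scale. With the replicate block, ORC1 lost its call (adjusted p = 0.0619, limma). All 7 had lower treated than untreated means in KGN, and 6 of them in COV434 too, with RFC2 at a COV434 log2 difference of 0.01. Groups of 3 libraries were not searched for single libraries that stand apart.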

How the results depend on the processing

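In KGN the genes that fell numbered 27 in 1 fit of all 12 libraries, against 667 of all 12671 genes, and kept within 1.5 times of 41 elsewhere. The count that rose was 0 with the filter at 0.1 FPKM, without a filter, in 1 fit of all 12 libraries, with the replicate block and with the GC correction, and 0 to 1 without 1 library. The KGN median was -0.69 with a pseudocount of 0.1 and with voom, and -0.63 with the GC correction. In COV434, 2 genes (RRM2 and GINS4) were lower at an adjusted p in 1 fit of all 12 libraries, against 270 of all 12060 genes. With the GC correction and the block 5 were lower, against 352 of all 10270. At an unadjusted p, 16 were lower in the shared fit, against 1187 of all 12060 genes, and 10 with the block, against 913. With the GC correction and the block 15 were lower, against 1079 of all 10270. Without 1 library 2 to 6 were lower, against 304 to 669 of all genes. The count was 3 without the untreated library 2 and 2 without the untreated library 3. The matching counts of higher genes in the first 3 of these settings were 1, 2 and 4, against 934, 826 and 1130 of all genes. Under the GC correction alone 1 was higher, against 517, and without 1 library 0 to 1, against 285 to 562. The interaction called 4 genes as lower without a filter, against 168 of all 35981 genes, and 11 with the block, against 292 of all 13127. It called 11 with the GC correction and 27 with both, against 274 and 631 of all 10909. Without 1 library it called 1 to 11, against 58 to 427 of all genes. Untreated COV434 was lower than KGN for 7 genes with voom, against 5248 of all 13098, where the median of the 48 was 0.89. Without 1 library it was lower for 2 to 6, against 3518 to 4918 of all genes, with 6 without the untreated COV434 library 2. It was higher for 31 genes with voom, against 4028 of all genes, and for 30 to 39 without 1 library, against 4224 to 5181. The share of promoters with an E2F-type octamer was 30.2% within 50 bases of the start, against 1.31% of all genes with an entry. The cause of these changes was not tested.

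No called value changed sign under these settings. With 3 libraries per group, differences as small as those of ORC4 and RPA1 in KGN passed or missed the threshold with the choice of libraries. In COV434 the median SD between libraries of 0.19 to 0.21 on the log2 scale limited what could be called, and genes there with no call were not shown to be unaffected. The dose unit, the labels of the lines and the origin of the replicates limit the comparisons further.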
